A study of Homo sapiens with 9 samples.

Results

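The 46 genes described here encode MYC and proteins that make the ribosome in the nucleolus. They were taken by name from a fixed list of nucleolar rRNA processing and RNA polymerase I genes, out of 58676 genes in the count table. The rule used no threshold on expression, though the list was drawn up with earlier results of these data known. RNA was sequenced in 9 libraries, in 3 groups, from HaCaT, a human keratinocyte line that grows without limit. CDDO-Me cultures received 250 nM for 14 h, PRL-295 cultures 10 µM for 14 h, and control cultures 1% DMSO for 14 h, with 3 libraries each. CDDO-Me, also called bardoxolone methyl, is a triterpenoid electrophile, and PRL-295 is named here only by its code. The study uses both as activators of NRF2, which drives the antioxidant response. Doses of the compounds differed, and DMSO is named in the labels only for the controls. Separate cultures behind the 3 libraries of a group are not stated, so p-values measure the spread between these samples, which may be technical.

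Ribosome biogenesis starts when RNA polymerase I transcribes a long precursor of the ribosomal RNAs. Small nucleolar ribonucleoproteins (snoRNPs) modify this precursor, and assembly factors fold and cut it into the small and the large subunit. MYC, a transcription factor, is known to raise the expression of many of these genes, often through the E-box sequence CACGTG in their promoters. By role, the list holds MYC, 4 genes of RNA polymerase I, 8 of snoRNPs and nucleolar scaffolds, 16 of small subunit assembly and 17 of large subunit assembly.

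Library totals ran from 23383800 to 32942156 counted reads, and CDDO-Me library 1 had the fewest detected genes (14543 with 1 count or more), CDDO-Me library 2 the most (23271). Keratinocyte markers summed to 6770 to 7813 FPKM in CDDO-Me, 4536 to 4821 FPKM in PRL-295 and 5262 to 5774 FPKM in DMSO libraries. Of 7 fibroblast markers, 6 stayed under 1 FPKM in every library, as did all 5 melanocyte, 6 immune and 5 endothelial markers, and COL3A1, DCN, LUM, TYR and PECAM1 had 0 counts throughout. The 46 genes together took 0.737% ± 0.0588 of counts in CDDO-Me, 0.842% ± 0.0483 in PRL-295 and 0.813% ± 0.0056 in DMSO libraries (SD, n = 3 each). All values are relative to the RNA in a library, so fewer cells of a type and less RNA per cell cannot be told apart.

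All 46 genes were detected in every library and passed the filter on low counts. Per length, the most abundant were the nucleolar histone chaperone NPM1, the rRNA-binding protein NCL and the snoRNP chaperone NOLC1. Their deposited FPKM averaged 301 ± 108 (NPM1), 176 ± 21.2 (NCL) and 110 ± 2.32 (NOLC1) with CDDO-Me, 322 ± 62.5, 200 ± 25.1 and 141 ± 2.42 with PRL-295, and 236 ± 28.0, 199 ± 9.13 and 159 ± 10.6 with DMSO (SD, n = 3 each). NCL thus ranked between NPM1 and NOLC1 in each group mean, and within a group no library of one overlapped those of another. The lowest was the rRNA methyltransferase NOP2, at 0.411 ± 0.0690 FPKM with CDDO-Me, 0.396 ± 0.217 with PRL-295 and 0.485 ± 0.148 with DMSO. NOP2 is overlapped over 11806 bases by another gene on its strand that had 0 counts, so its level is uncertain. UTP15, the next lowest, had a mean of 3.67 FPKM with DMSO.

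**Figure D1:**
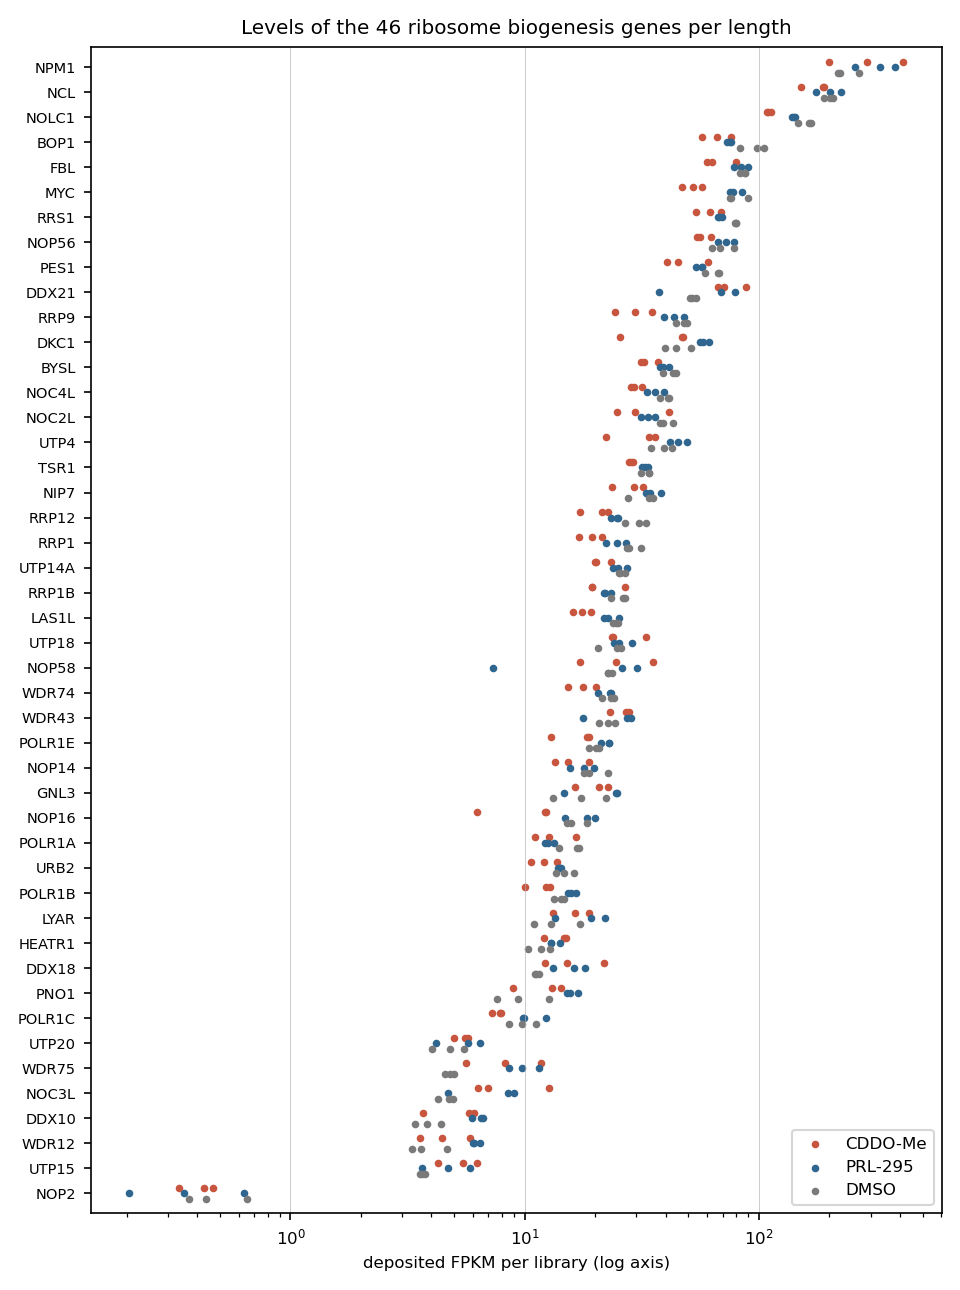
Deposited FPKM of each of the 46 genes in each library on a log axis, with CDDO-Me in red, PRL-295 in blue and DMSO in grey, ordered by the DMSO mean. The genes ran from NOP2, with a DMSO mean of 0.485 FPKM, to NPM1, with a DMSO mean of 236 FPKM.

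RefSeq promoter windows, 250 bases before to 50 bases after the annotated start, were at hand for 36 of the 46 genes. CACGTG, which reads the same on both strands, occurred in 13 of them (36.1%), against 2548 of 35116 promoters of all genes in the table (7.26%). The promoters of all genes were not matched to those of the 36 for GC content or expression. Of the 14 E-boxes in these genes, 12 (85.7%) began between 20 bases before and 40 bases after the start, against 19.4% of the 2821 E-boxes in all promoters. This window was not planned and lies close around the offsets of the 12, from -16 to 35. The contrast in position is therefore a description and not a test. The core of the NRF2 element, searched as TGACNNNGC on both strands, occurred in 3 of 36 (8.33%), against 13.3% of all promoters. The motifs can share the letters TG, but none of the 36 promoters held both, and a match is a description of the sequence only. Promoters of 4 genes with an E-box near the start are shown. RRP9, of snoRNPs, was taken because it passed the test of CDDO-Me against DMSO given below. FBL of snoRNPs, UTP4 of the small subunit and PES1 of the large subunit were the most abundant such genes of their role with DMSO. Each run holds 100 bases before and 20 bases from the start on, read along the gene's strand in GRCh38.p14, with the E-box in capitals. The E-box begins at offset -5 from the start in RRP9, 6 in FBL, -16 in UTP4 and 13 in PES1.
RRP9, chr3:51941885-51942004, minus strand: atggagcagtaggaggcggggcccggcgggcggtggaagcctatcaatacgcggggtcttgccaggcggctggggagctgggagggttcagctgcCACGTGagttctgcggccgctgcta
FBL, chr19:39846360-39846479, minus strand: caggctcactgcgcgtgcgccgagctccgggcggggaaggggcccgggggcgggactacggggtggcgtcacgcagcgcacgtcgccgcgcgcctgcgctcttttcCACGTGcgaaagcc
UTP4, chr16:69132549-69132668, plus strand: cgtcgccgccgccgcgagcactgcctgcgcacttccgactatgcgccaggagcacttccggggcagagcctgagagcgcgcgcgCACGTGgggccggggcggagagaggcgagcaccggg
PES1, chr22:30591891-30592010, minus strand: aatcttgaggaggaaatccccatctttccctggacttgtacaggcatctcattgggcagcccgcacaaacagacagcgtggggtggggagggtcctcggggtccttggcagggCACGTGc

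CDDO-Me against DMSO asked how the ribosome-making genes stood after the electrophilic activator. MYC and 7 processing factors, RRP9, RRP1, RRP12, NOLC1, BOP1, LAS1L and NOC4L, fell and were 1.35- to 1.60-fold lower, and 1 small subunit factor, WDR75, rose. In all, 9 of 46 genes passed an adjusted p of 0.05 in the edgeR quasi-likelihood test, against 9.22% of the 16239 genes tested. The 8 that fell compare with 4.57% of all tested genes called lower, and the 1 that rose with 4.65% called higher. The median log2 fold change was -0.25 over the 46 genes and 0.0078 over all tested genes. At an unadjusted p under 0.05, 19 were lower and 5 higher, where 12.6% of all genes were lower and 13.4% higher. In 19 genes every CDDO-Me library lay below every DMSO library and in 5 every one lay above, against 16.3% and 15.5% of all tested genes.

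MYC (ENSG00000136997; hg38 chromosome 8, 127735434 to 127741434) had 141, 156 and 171 CPM (counts scaled to a common library total with TMM) in the CDDO-Me libraries, against 224, 228 and 268 CPM in the DMSO libraries. The groups did not overlap, and the highest CDDO-Me library lay below the lowest DMSO library. The log2 fold change was -0.62 (95% interval -0.88 to -0.37, edgeR adjusted p = 0.010), which is 1.54-fold lower. Leaving out each of the 9 libraries in turn kept the call, with values from -0.69 to -0.53 and adjusted p from 0.00916 to 0.0467.

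Among snoRNP and scaffold genes, 2 of 8 fell and none of the others passed the test. NOLC1 (ENSG00000166197; chromosome 10, 102152176 to 102163871), the chaperone that brings snoRNPs to the nucleolus, had 430.5, 430.0 and 444 CPM with CDDO-Me, against 649, 659 and 579 CPM with DMSO. Its CDDO-Me libraries were the most alike of any called gene, and all lay below DMSO, with a log2 fold change of -0.53 ± 0.09 (SE, adjusted p = 0.00604). NOLC1 also stayed past the threshold without any single library, at -0.58 to -0.50. RRP9 (ENSG00000114767; chromosome 3, 51933430 to 51941941), a protein of the snoRNP that guides the first cuts of the precursor, had 38.5, 46.1 and 54.4 CPM with CDDO-Me, against 68.3, 78.7 and 75.1 CPM with DMSO. These groups did not overlap either, and the log2 fold change was -0.68 (adjusted p = 0.0216). RRP9 is the only called gene of the 5 in the promoter table that holds an E-box. The rRNA methylase FBL (log2 fold change -0.35, adjusted p = 0.110) and its partner NOP56 (-0.28, 0.156) missed the threshold. The other 4, the snoRNP core protein NOP58, the pseudouridine synthase DKC1, NCL and NPM1, lay between -0.18 and 0.35 with adjusted p of at least 0.343.

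For RNA polymerase I, 0 of 4 genes passed the edgeR test, with 1 at an unadjusted p under 0.05 and 0 called by DESeq2. All 4 estimates were below 0: the largest subunit POLR1A at -0.25, the second catalytic subunit POLR1B at -0.27, the shared subunit POLR1C at -0.36 and the subunit POLR1E at -0.26, with adjusted p from 0.188 to 0.335. POLR1B had 63.4, 77.1 and 80.7 CPM with CDDO-Me, against 91.6, 91.4 and 83.5 CPM with DMSO, with no overlap. POLR1A overlapped between the groups, since CDDO-Me library 1 stood at 225 CPM and DMSO library 3 at 188 CPM.

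In small subunit assembly, 2 of 16 genes fell and 1 rose. RRP12 (ENSG00000052749; chromosome 10, 97356358 to 97426076), which takes part in maturation and export of the subunits, had 194, 146 and 181 CPM with CDDO-Me, against 259, 284 and 228 CPM with DMSO. All CDDO-Me libraries were lower, and the log2 fold change was -0.57 (adjusted p = 0.0213). NOC4L (ENSG00000184967; chromosome 12, 132144448 to 132152473), a partner of NOP14 in early small subunit particles, had 64.1, 57.1 and 58.9 CPM with CDDO-Me, against 75.2, 85.2 and 82.5 CPM with DMSO. It was also lower throughout, at -0.43 (adjusted p = 0.0478). WDR75 (ENSG00000115368; chromosome 2, 189441433 to 189475565), of the complex that first binds the precursor, had 28.3, 59.0 and 41.4 CPM with CDDO-Me, against 24.8, 24.5 and 22.9 CPM with DMSO. All CDDO-Me libraries were higher, over a wide range, with a log2 fold change of 0.83 (95% interval 0.32 to 1.35, adjusted p = 0.0484). The WDR75 call was lost in 7 of 9 fits that left out a library, with the lowest value, 0.51, without CDDO-Me library 2, and in 8 of 12 other settings. Other proteins of that first complex had 0.26 (HEATR1), 0.20 (WDR43), 0.53 (UTP15) and -0.34 (UTP4) on the log2 scale, with adjusted p from 0.115 to 0.475. The late factors BYSL (-0.33), TSR1 (-0.23) and PNO1 (0.29) had adjusted p of 0.110, 0.159 and 0.445. The RNA helicases DDX10 and DDX21 had estimates of 0.42 and 0.53 (adjusted p = 0.198 and 0.148). The remaining processing factors UTP14A (-0.30), NOP14 (-0.32), UTP18 (0.17) and UTP20 (0.18) had adjusted p from 0.124 to 0.574.

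Of 17 large subunit genes, 3 fell and none rose. RRP1 (ENSG00000160214; chromosome 21, 43789513 to 43805293), a nucleolar rRNA processing protein, had 82.6, 72.1 and 89.6 CPM with CDDO-Me, against 117, 135 and 115 CPM with DMSO. The groups were separate, at -0.59 (adjusted p = 0.0201). BOP1 (ENSG00000261236; chromosome 8, 144262102 to 144291370), which forms a complex with PES1 and WDR12, had 282, 209 and 243 CPM with CDDO-Me, against 384, 369 and 307 CPM with DMSO. CDDO-Me library 1 came closest to DMSO but stayed below it, and the log2 fold change was -0.53 (adjusted p = 0.0296). Its partners differed from it and from each other in their estimates, PES1 at -0.41 (adjusted p = 0.105) and WDR12 at 0.25 (adjusted p = 0.440). LAS1L (ENSG00000001497; chromosome X, 65512582 to 65534775), of the endonuclease complex that cuts the internal spacer, had 107, 89.1 and 97.6 CPM with CDDO-Me, against 131, 141 and 137 CPM with DMSO. Again no libraries overlapped, at -0.48 (adjusted p = 0.0279). NOP16 had the lowest estimate of all 46 genes, -0.69, but CDDO-Me library 1 at 17.8 CPM stood apart from the other 2 at 34.9 and 34.7 CPM, against 44.5, 43.9 and 52.5 CPM with DMSO, and the adjusted p was 0.0961. NOC3L, a factor of early large subunit particles, had the highest, 0.89 (adjusted p = 0.0767), with 31.2, 56.0 and 28.0 CPM against 21.8, 19.3 and 21.0 CPM with DMSO. The remaining 10 lay between -0.38 and 0.54 with adjusted p of at least 0.0624.

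**Figure D2:**
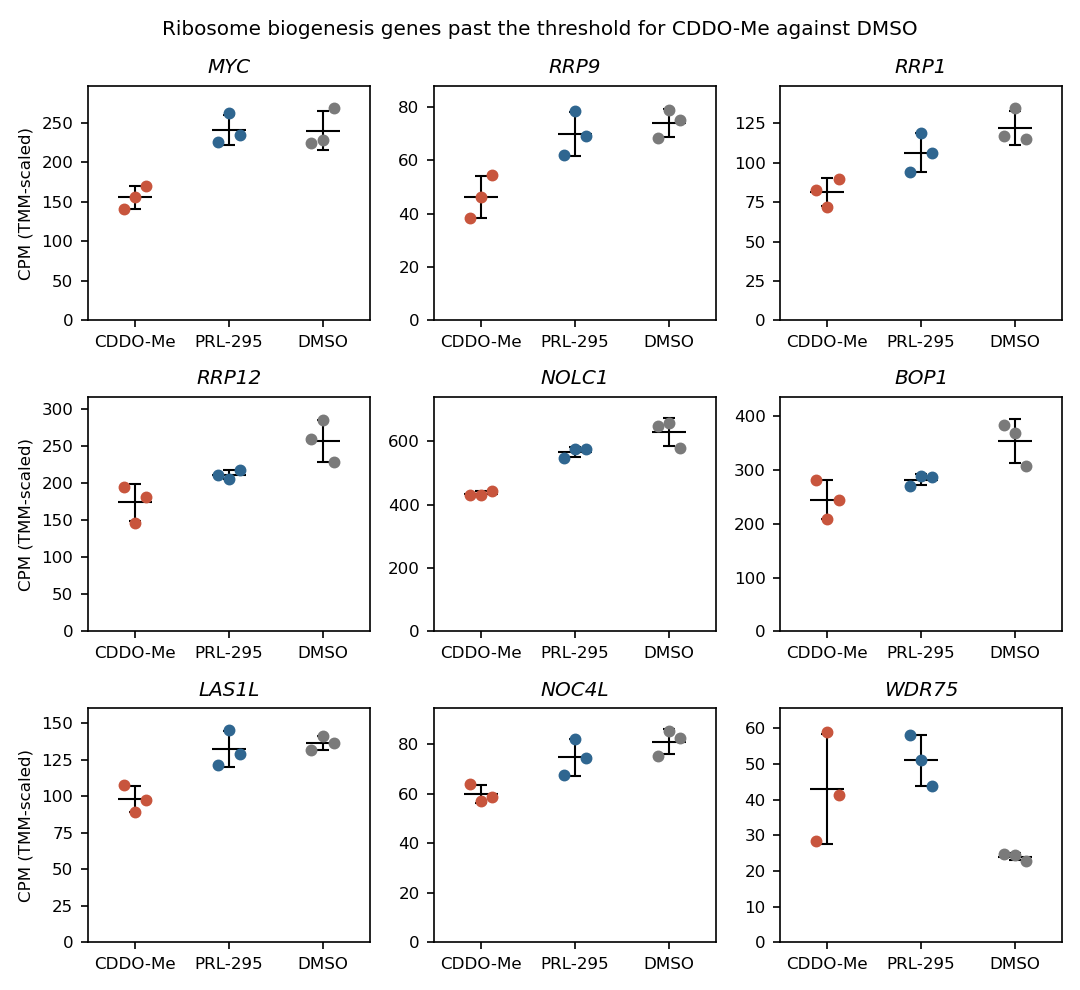
CPM per library of MYC and the 8 other genes past the threshold for CDDO-Me against DMSO. Points are libraries, long bars means and whiskers SDs (n = 3). CDDO-Me libraries lie below DMSO libraries in 8 genes and above in WDR75.

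The count of calls rested on single libraries, and of the genes that fell, those other than MYC and NOLC1 lost their call in 3 (RRP12) to 7 (NOC4L) of the 9 fits. Without CDDO-Me library 1 it was 22 (17 lower and 5 higher), without CDDO-Me library 2 it was 2, and without CDDO-Me library 3 it was 5. Calls over all genes moved too, from 1497 of 16239 in the main fit to 2803 of 16978, 629 of 16945 and 946 of 16951. Leaving out a DMSO library gave 2, 2 and 4 calls for libraries 1, 2 and 3, and leaving out PRL-295 library 3, which shares the estimate of spread, gave 3. Over all genes those fits called 477 of 16947, 400 of 16868 and 628 of 16969 for DMSO, and 779 of 17055 for PRL-295 library 3.

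The fold changes followed GC content. Over the 46 genes, the log2 fold change of CDDO-Me against DMSO and the GC content of the longest annotated transcript had a Pearson r of -0.84, against -0.36 over all 16239 tested genes. These are correlations across genes of the same libraries, which are not independent replicates. The 16 genes under 45% GC had a median log2 fold change of 0.27 and all but POLR1B were above 0. The 19 genes of 45% to 55% had a median of -0.30, with 18 below 0, and the 11 genes of 55% or more had a median of -0.41, all below 0. Over all tested genes the medians of the same bins were 0.41, -0.072 and -0.28. The 8 genes that fell had a median GC content of 59.6%, where the 46 had 48.4% and all tested genes 49.2%, and WDR75 had 37.7%. The trend also differed between libraries. Over the 46 genes, each library was set against the 9-library mean, and the r of that deviation with GC content was 0.015, -0.81 and -0.70 in CDDO-Me libraries 1 to 3, -0.74, 0.21 and -0.53 in PRL-295 libraries 1 to 3, and 0.76, 0.80 and 0.63 in DMSO libraries 1 to 3. Over all tested genes it was -0.017, -0.55 and -0.14 with CDDO-Me, -0.33, 0.27 and -0.075 with PRL-295, and 0.26, 0.21 and 0.27 with DMSO. There PRL-295 library 2 stood with the DMSO libraries.

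Correcting every library for the GC content and the length of genes left 0 of 46 genes called in either direction, where 2.96% of all genes were then called higher and 1.5% lower. MYC had -0.34 (adjusted p = 0.145) and NOLC1 -0.47 (adjusted p = 0.114) in that fit. With the correction fitted on genes of at least 1 CPM only, a setting chosen after seeing the data, 4 genes were lower, MYC (-0.37, adjusted p = 0.028), NOLC1 (-0.50, 0.020), RRP12 (-0.36, 0.043) and POLR1B (-0.42, 0.045), and none higher, against 2.52% lower and 3.88% higher over all genes. The median of the 46 genes was then -0.13. WDR75, NOC4L and BOP1 were at 0.26, -0.022 and -0.18 with adjusted p of at least 0.364.

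**Figure D3:**
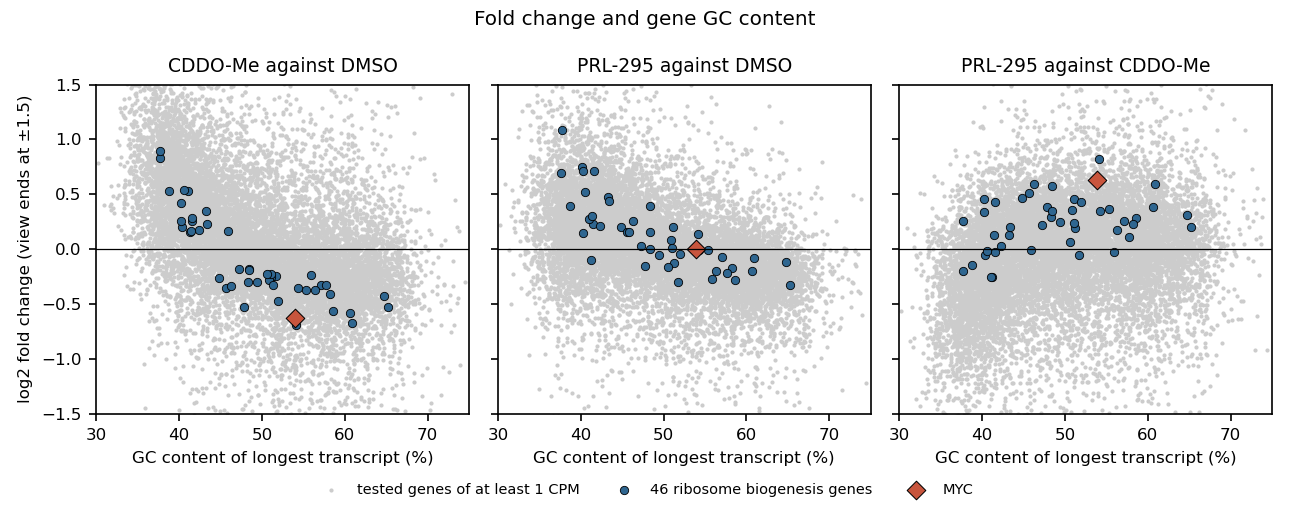
Log2 fold change against GC content of the longest transcript for the 46 genes (blue), MYC (red diamond) and all tested genes of at least 1 CPM (grey), in 3 comparisons. Values fall with GC content for both compounds against DMSO, with r of -0.84 and -0.78 over the 46 genes, and r is 0.36 for PRL-295 against CDDO-Me.

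PRL-295 against DMSO asked the same of the second compound. None of the 46 genes passed the edgeR test, where 0.684% of all tested genes did (0.462% higher and 0.222% lower). The gene with the smallest p was WDR75, followed by DDX10 and WDR12, all with estimates above 0, and the estimate for MYC was near 0. At an unadjusted p under 0.05, 6 genes were higher and 2 lower, against 7.58% and 5.31% of all genes. DESeq2 called 3 higher and none lower, and 535 of 12046 genes over all genes. The median log2 fold change was 0.055 over the 46 genes, and -0.012 over all tested genes.

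MYC had 226, 262 and 235 CPM in the PRL-295 libraries, inside the spread of the 224, 228 and 268 CPM of the DMSO libraries. The log2 fold change was 0.0039, with a 95% interval of -0.25 to 0.26, and it took either sign with the scaling (-0.025 with library-size scaling). WDR75 had 58.2, 51.2 and 43.9 CPM with PRL-295, against 24.8, 24.5 and 22.9 CPM with DMSO. The libraries of PRL-295 all lay above those of DMSO, at a log2 fold change of 1.09 (95% interval 0.57 to 1.60), and the adjusted p was 0.0696. DDX10, a helicase of small subunit assembly, had 55.3, 58.1 and 51.3 CPM with PRL-295, against 28.2, 32.8 and 36.7 CPM with DMSO, and WDR12 had 55.1, 60.7 and 55.7 CPM, against 32.4, 30.4 and 42.0 CPM. Both were separate from DMSO, at 0.75 (adjusted p = 0.123) and 0.71 (adjusted p = 0.136). All 3 were called by DESeq2, with no filter and in a fit of the 6 compared libraries only.

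Of the other genes that fell with CDDO-Me, all 7 had estimates below 0 with PRL-295, from -0.32 for BOP1 to -0.05 for LAS1L, and none passed the test. GC content followed the same direction as for CDDO-Me, with r = -0.78 over the 46 genes and -0.30 over all tested genes. The 16 genes under 45% GC had a median of 0.41, the 19 in the middle 0.0097 and the 11 of 55% or more -0.20, with all 11 below 0. With the GC and length correction 0 of the 46 were called (0.567% of all genes higher and 0.203% lower), and 0 with the correction fitted on genes of at least 1 CPM (0.733% higher and 0.283% lower). Both comparisons share the DMSO libraries, so their values are not independent.

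PRL-295 library 2 stood apart in some low-GC genes, a trend it also had over all tested genes. The snoRNP core protein NOP58 had 25.0 CPM there, against 99.3 and 87.4 CPM in PRL-295 libraries 1 and 3, 56.8 to 115 CPM with CDDO-Me and 73.8 to 76.9 CPM with DMSO. Relative to the mean of the other PRL-295 libraries, NOP58 was at -1.90 on the log2 scale, at the 3.27th percentile of all tested genes. In that library 8 of the 46 genes lay below -0.5 (17.4%), a smaller share than the 23.0% of all tested genes. Of the 8, 7 had a GC content under 45%. The r of this difference with GC content was 0.45 over the 46 genes and 0.38 over all tested genes. DDX21 was among the 8, at 195 CPM, against 397 and 351 CPM in the other PRL-295 libraries. Without this library the count of calls for PRL-295 against DMSO was still 0.

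**Figure D4:**
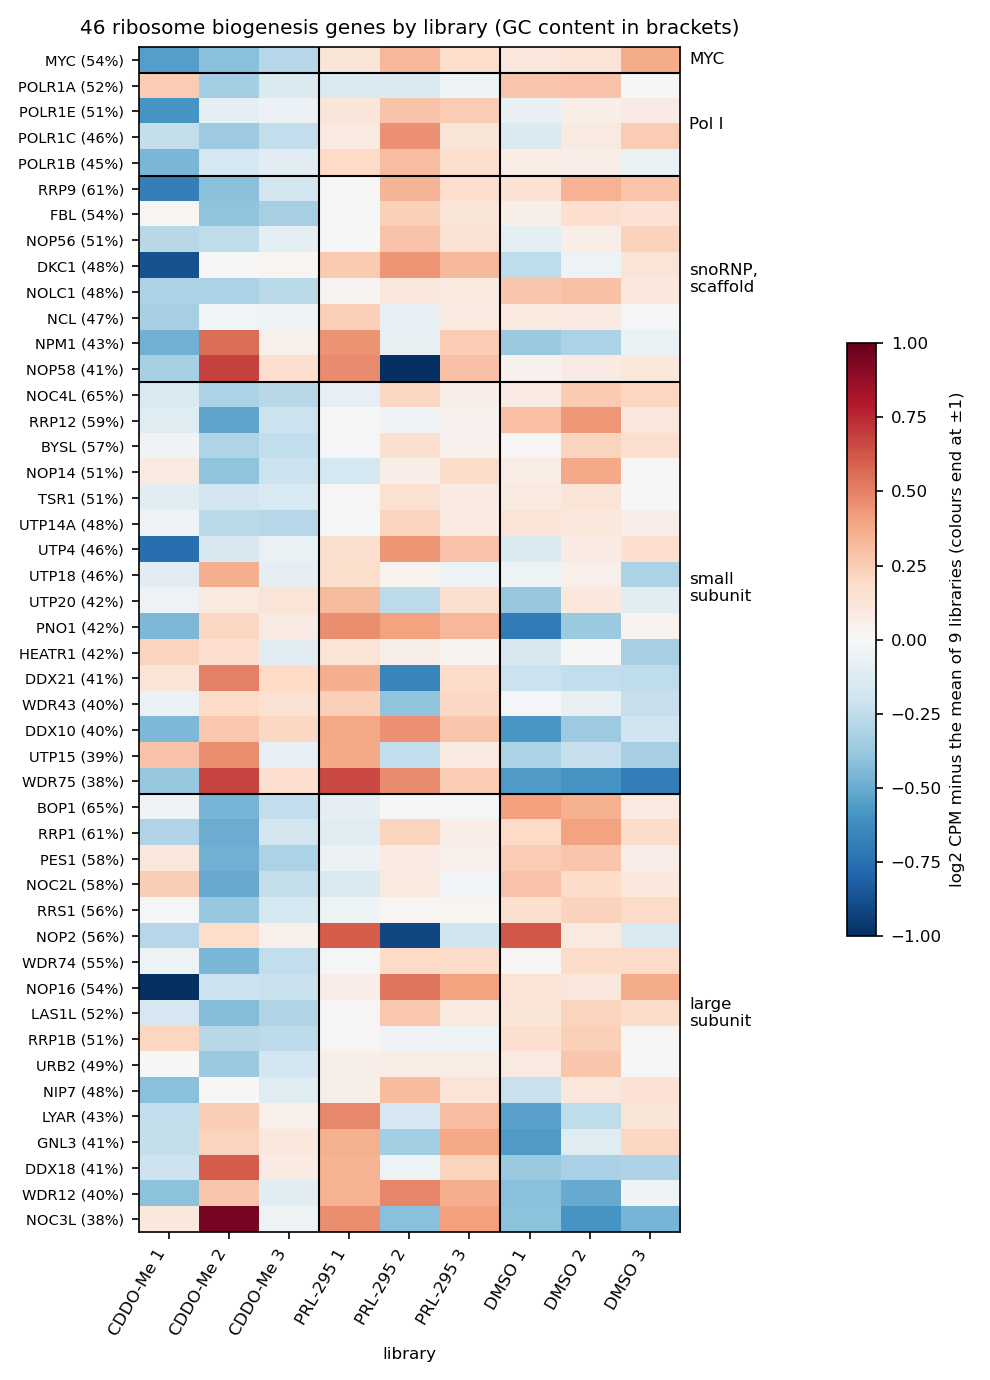
Log2 CPM of each gene minus its mean over the 9 libraries, for the 46 genes in rows by role and falling GC content, and libraries in columns. Colours end at ±1. MYC and NOLC1 are below their mean in all 3 CDDO-Me libraries and above it in the other 6. CDDO-Me library 1 is low in NOP16 and DKC1, and PRL-295 library 2 in NOP58.

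Set directly against each other, PRL-295 and CDDO-Me differed in the level of MYC, with the doses of 10 µM and 250 nM side by side. Of 46 genes 1 passed the edgeR test, MYC, against 1.59% of all tested genes called and 0.905% called higher. At an unadjusted p under 0.05, 20 of the 46 were higher with PRL-295 and 0 lower, against 9.21% and 8.01% of all genes. In 23 genes every PRL-295 library lay above every CDDO-Me library, and in 0 genes every one lay below, against 14.4% and 10.2% of all tested genes. The median log2 fold change was 0.25 over the 46 genes, and -0.0065 over all tested genes.

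MYC averaged 241 ± 18.8 CPM with PRL-295 and 156 ± 14.6 CPM with CDDO-Me (SD, n = 3 each). The lowest PRL-295 library, at 226 CPM, lay above the highest CDDO-Me library, at 171 CPM, and the log2 fold change was 0.63 (95% interval 0.37 to 0.89, adjusted p = 0.0245), or 1.55-fold. The call was lost in 6 of 9 fits that left out a library (without CDDO-Me 2 or 3, each PRL-295 library or DMSO 2), where the adjusted p reached 0.108 and the value stayed between 0.57 and 0.70. With the GC and length correction it was 0.40 (adjusted p = 0.139), and no gene of the 46 was called, against 0.573% of all genes higher and 0.807% lower. With that correction fitted on genes of at least 1 CPM it was 0.42 (adjusted p = 0.030), and MYC was again the 1 gene called, against 1.03% of all genes higher and 1.27% lower.

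NOLC1 came next by p, at 547, 576 and 575 CPM with PRL-295, against 430.5, 430.0 and 444 CPM with CDDO-Me. The groups were separate, with a log2 fold change of 0.38 (95% interval 0.18 to 0.58), and the adjusted p was 0.0648. RRP9 had 62.0, 78.3 and 69.3 CPM with PRL-295, against 38.5, 46.1 and 54.4 CPM with CDDO-Me. It did not overlap either, at 0.59 (95% interval 0.26 to 0.93, adjusted p = 0.0851). Of the polymerase genes, POLR1B, POLR1C and POLR1E had 0.47, 0.51 and 0.45 with no overlap (adjusted p = 0.086, 0.155 and 0.172), while POLR1A had -0.06 (95% interval -0.39 to 0.27). Estimates closest to 0 were those of UTP18 (-0.01, 95% interval -0.36 to 0.34) and DDX18 (-0.02, 95% interval -0.42 to 0.39), and WDR75 had 0.25 (95% interval -0.25 to 0.76). These intervals leave room for differences of either sign. Here r with GC content was 0.36 over the 46 genes, and 0.17 over all tested genes. The medians were 0.079 under 45% GC, 0.35 in the middle and 0.25 at 55% or more.

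**Figure D5:**
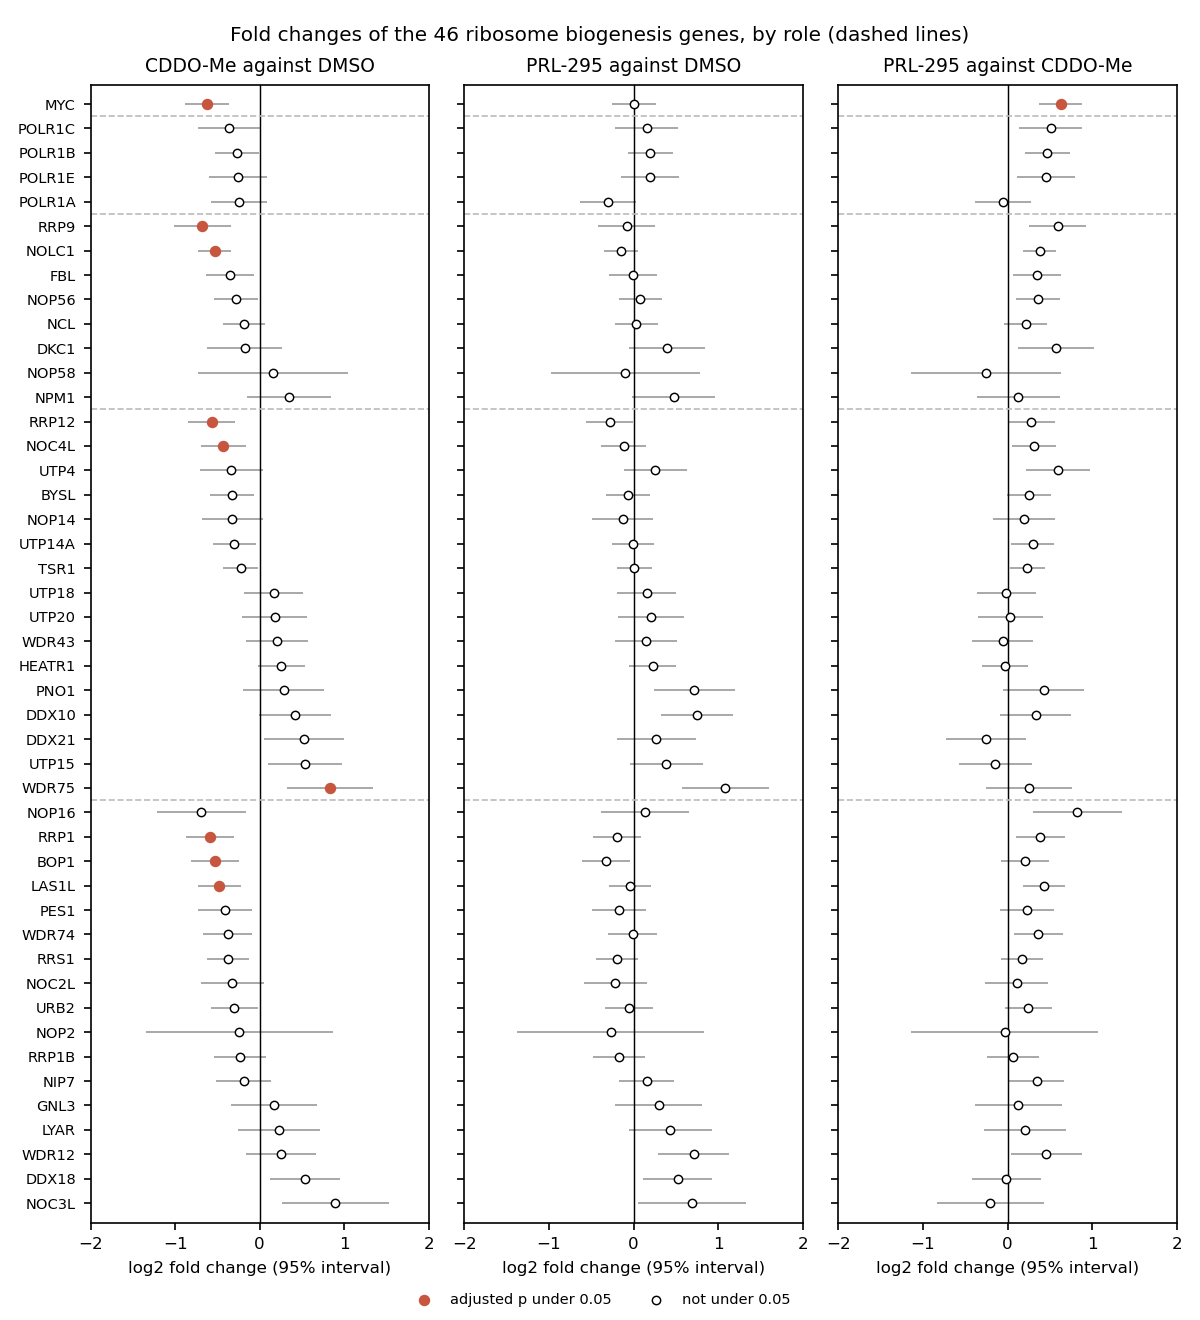
Log2 fold change with its 95% interval for each of the 46 genes in 3 comparisons, by role from MYC at the top to the large subunit at the bottom. Filled points passed an adjusted p of 0.05. There are 9 filled points for CDDO-Me against DMSO, 0 for PRL-295 against DMSO and 1, MYC, for PRL-295 against CDDO-Me.

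A test of any difference among the 3 groups called 4 of 46 genes, MYC, NOLC1, RRP9 and WDR75, against 5.68% of all tested genes. By library, the median deviation of the 46 genes from their mean was -0.19, -0.18 and -0.12 in CDDO-Me libraries 1 to 3, 0.10, 0.099 and 0.14 in PRL-295 libraries 1 to 3, and 0.030, 0.10 and 0.073 in DMSO libraries 1 to 3. Over all tested genes the median deviations were -0.092, 0.074 and 0.063 in CDDO-Me libraries 1 to 3, 0.065, 0.015 and 0.048 in PRL-295 libraries 1 to 3, and 0.030, 0.020 and 0.043 in DMSO libraries 1 to 3. For the 46 genes all 3 CDDO-Me libraries were lower than all others and the order of PRL-295 and DMSO was mixed, and in CDDO-Me library 1 the median of all genes was low as well.

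The rest of the pathway was read from other lists. Of 111 further biogenesis factors, 12 fell and 4 rose with CDDO-Me, with a median log2 fold change of -0.12, where 4.57% of all tested genes fell and 4.65% rose. With the GC and length correction 0 were lower and 2 higher, and with the correction fitted on genes of at least 1 CPM 3 were lower and 2 higher. Among those that fell were NOL6 (-0.71) and DHX37 (-0.69) of the small subunit, MRTO4 (-0.57) and PELP1 (-0.53) of the large subunit, the polymerase I factors TAF1C (-0.57) and UBTF (-0.40), and RUVBL1 and SNU13 (both -0.47) of snoRNPs. Those that rose were the large subunit factors BRIX1 (2.04), SBDS (1.75) and RSL24D1 (1.13) and the small subunit factor WDR36 (0.83). BRIX1 had 8.17, 42.4 and 20.9 CPM with CDDO-Me, against 6.0, 5.04 and 6.31 CPM with DMSO, so its CDDO-Me libraries differed widely. The 4 that rose had GC contents of 35.8% to 42.1%. DESeq2 called 17 lower and 10 higher, and 2511 of 14721 genes over all genes. With PRL-295 none of the 111 passed against DMSO by the edgeR test, with 18 higher and 8 lower at an unadjusted p under 0.05. At that threshold 7.58% of all tested genes were higher and 5.31% lower. For this comparison DESeq2 called 6 higher, and 535 of 12046 genes over all genes. MRTO4 (0.53) and RUVBL1 (0.58) were higher with PRL-295 than with CDDO-Me, where 0.905% of all tested genes were called higher. In this comparison the median over the 111 was 0.19, and 30 were higher and 1 lower at an unadjusted edgeR p under 0.05. Shares over all tested genes were 9.21% and 8.01%. DESeq2 called 10 of the 111 higher and 0 lower, and 898 of 13116 genes over all genes.

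Of 78 cytosolic ribosomal protein genes, 14 fell and 0 rose with CDDO-Me, with a median log2 fold change of -0.30, beside the 4.57% of all tested genes that fell and the 4.65% that rose. Of the genes called, the largest falls were those of RPS15 (-0.46) and RPS19 (-0.42) in the small subunit and of RPL18 (-0.45) and RPL13 (-0.44) in the large subunit. With the GC and length correction 1 was lower and 2 higher, at a median of -0.10, and with the correction fitted on genes of at least 1 CPM 5 were lower and 2 higher. For PRL-295 against DMSO 0 passed the edgeR test, with 12 higher and 1 lower at an unadjusted p under 0.05. The shares over all tested genes were 7.58% and 5.31%. DESeq2 called 4 higher, and 535 of 12046 genes over all genes. For PRL-295 against CDDO-Me 0 passed as well, with a median of 0.37. At an unadjusted p under 0.05, 53 were higher and 0 lower, against 9.21% and 8.01% of all tested genes. DESeq2 called 7 higher, and 898 of 13116 genes over all genes. Ribosomal protein genes have many near-identical pseudogenes, so single values are uncertain. Of 14 RNA exosome genes, which trim the precursor's ends, EXOSC4 fell with CDDO-Me (-0.82) and was higher with PRL-295 than with CDDO-Me (0.84). The EXOSC4 value for CDDO-Me against DMSO was -0.43 (adjusted p = 0.247) with the GC and length correction. In that fit 1 other exosome gene was called lower and 0 higher, against 1.5% and 2.96% of all genes. With the correction fitted on genes of at least 1 CPM, 1 exosome gene was lower and 0 higher, against 2.52% and 3.88%. In the MYC network, 9 of 10 genes were tested, and 2 rose with CDDO-Me, MXD1 (1.00), a repressor that competes with MYC for its partner MAX, and MGA (0.75), a further MAX partner. With the GC and length correction neither was called, at 0.73 (adjusted p = 0.0506) for MXD1 and 0.40 (adjusted p = 0.295) for MGA, and with the correction fitted on genes of at least 1 CPM only MXD1 was called, at 0.73 (adjusted p = 0.0325). RNA polymerase III (12 genes) and snoRNA host genes that encode no protein (10 of 12 tested) had 0 calls by edgeR in the 3 comparisons. DESeq2 called 1 polymerase III gene higher for CDDO-Me against DMSO and 1 for PRL-295 against CDDO-Me, and no host gene. Over all genes it called 2511 of 14721 and 898 of 13116 in those comparisons. At an unadjusted p under 0.05 in the edgeR test, polymerase III had 1 higher and 1 lower with CDDO-Me against DMSO, 2 higher with PRL-295 against DMSO and 3 higher with PRL-295 against CDDO-Me, and the host genes had 0, 1 higher and 1 higher. Over all tested genes, in the same order, 13.4%, 7.58% and 9.21% were higher and 12.6%, 5.31% and 8.01% lower. Of 10 keratinocyte markers, 7 rose with CDDO-Me, among them the integrin genes ITGA6 (1.76) and ITGB4 (0.62). With the GC and length correction 7 were higher, and 7 with the correction fitted on genes of at least 1 CPM. Over all genes 2.96% and 3.88% were higher in those fits. The part of these markers in the lower share of ribosome biogenesis genes was not tested.

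Some counts may be affected by other genes that overlap or resemble the counted gene. Of the 46, 21 overlap another gene that is not a small RNA, 19 of them on the opposite strand, and the labels do not say whether counting used strand. Of the called genes, BOP1 overlaps SCX over 1922 bases (1830 counts, against 74155 for BOP1), and RRP12 overlaps genes with at most 57 counts. Of the 46 genes, 7 hold 25 snoRNA or small Cajal body RNA genes in their span. NPM1 has 45 named pseudogenes, which took counts equal to 0.913% of its own.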

How the data were processed

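Per the labels, total RNA was isolated (Qiagen RNeasy Plus), STAR 2.5 mapped the reads to hg38 and HTSeq 0.6.1 assigned them to genes; annotation release and strand setting are not given in the sources used here. The deposited counts are whole, unscaled reads. The deposited FPKM equalled the count over gene length and library total, scaled as the unit states, for 100% of values within 0.1%, using the deposited gene length. A floor of 3 counts is 0.0911 to 0.128 CPM and covers counting error only.

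Counts were tested with edgeR 4.0.16 (R 4.3.3; filterByExpr, TMM scaling, quasi-likelihood) in 1 fit of 9 libraries, adjusted by Benjamini-Hochberg over 16239 genes at 0.05, in 3 comparisons and an F test. GC content came from the longest transcript in GENCODE 29; its correction used splines of 5 degrees of freedom per library. The pipeline was tested on simulated data, with 50 genes changed at each fold. Of 1.5-fold changes it called 10% for CDDO-Me against DMSO, 12% for PRL-295 against DMSO and 8% for PRL-295 against CDDO-Me. Of 2-fold changes it called 44%, 42% and 28%. A gene that was not called may therefore still differ by such amounts. Each simulation changed fewer genes than the 1497 called for CDDO-Me against DMSO, so its shares may not hold for the real data of that comparison. Genes, lists, roles and tests were chosen with earlier results of these data known. All 46 genes are accounted for by role; named in full are MYC, up to 6 called genes in each direction by size and, where fewer than 3 passed, the 3 with the smallest p, and from other lists up to 2 called genes in each direction. NOC4L and LAS1L, per-library values of NOP16, NOC3L, POLR1B and NOP58, and RSL24D1 were added after their values were seen. Alternatives were DESeq2 1.42.0, RLE or library-size scaling, no filter or 1 CPM, a replicate block, limma 3.58.1 on log2 FPKM (1 or 0.1 added), GC and length corrections, fits of 6 libraries and leaving out each library.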

Additional observations from a re-analysis of the deposited data

How the results depend on the processing

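For CDDO-Me against DMSO, the 9 calls became 5 with a replicate block and 0 with the GC and length correction. They became 0 with that correction and the block, and 4 with the correction fitted on genes of at least 1 CPM. Leaving out a library gave 2 to 22. Over all genes, the 1497 calls became 864, 724, 617 and 1039 in the same order, and 400 to 2803 without a library. For PRL-295 against DMSO, the 0 calls became 3 with DESeq2, 7 with no filter, 4 in a fit of 6 libraries and 0 to 3 without a library. Over all genes, the 111 of 16239 became 535 of 12046, 825 of 29198 and 650 of 15386, and 33 to 589 without a library. For PRL-295 against CDDO-Me, the 1 call became 7 with DESeq2 and 5 with no filter. It became 0 with the GC correction, with that correction and the block, and with 6 libraries, and 0 to 1 without a library. Over all genes, the 258 calls became 898 of 13116, 1250 of 29198, 224, 161 and 45 of 15373, and 60 to 285 without a library. The 4 genes that differed among groups became 15 with DESeq2, 18 with no filter and 2 with the block. They became 1 with the GC correction, 0 with that correction and the block, and 0 to 14 without a library. Over all genes, the 922 calls became 2380 of 13116, 2841 of 29198, 459, 573 and 491, and 287 to 1919 without a library. NOC4L reversed to 0.022 with the GC correction and 0.0098 with it and the block. MYC with PRL-295 against DMSO lay at -0.0061 (DESeq2), -0.0063 (RLE), -0.025 (library-size scaling), -0.022 (1 CPM) and -0.022 (limma, both pseudocounts), and between -0.057 and 0.099 without a library. The cause of these changes was not tested. Same-numbered libraries did not deviate together (r from -0.14 to 0.10 over 9 pairs, 1 over 0.1, and 1 of 9 libraries correlated best with its own number), so the numbers were not taken as pairs.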
